A study of Homo sapiens with 10 samples.

Results

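The 9 genes described are NQO1, HMOX1, TXNRD1, SRXN1, GCLC, GCLM, ME1, TXN and OSGIN1, antioxidant genes that are classed as targets of the transcription factor NRF2. They were taken by name from the table of counts per gene, which holds 57353 gene symbols. All 9 were found, and all 9 were among the 17230 genes that passed the expression filter. Transcripts were sequenced in 10 samples of LNCaP-C4-2 cells, a human line of castration-resistant prostate cancer. CPT1A, the target of the study, is the enzyme of the outer mitochondrial membrane that makes acyl-carnitines from long-chain fatty acids for import and oxidation. CPT1A was knocked down with 1 shRNA in 3 samples (KD), and their control is 2 samples with a scrambled, non-targeting shRNA (NT). CPT1A cDNA was delivered by lentivirus in 3 samples (OE), and their control is 2 samples that received the empty vector (EV). NT and KD cells were selected with 1 µg/ml puromycin, and EV and OE cells with 5 µg/ml blasticidin. All cells grew in RPMI with fetal bovine serum, amino acids and insulin, without added fatty acids, and were taken before full confluency. The sources used here do not say whether the samples of a group came from separate transductions or cultures. The p-values therefore measure only the spread between these samples, which may be technical.

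NRF2, the product of NFE2L2, is held in the cytosol by KEAP1, which presents it to a CUL3 ubiquitin ligase for degradation. Oxidants and electrophiles modify KEAP1, and NRF2 then enters the nucleus, pairs with a small MAF protein and binds antioxidant response elements (AREs) in its target genes. BACH1 competes for the same elements as a repressor and is best known for keeping HMOX1 low. The targets supply glutathione, reduce oxidised proteins through thioredoxin, make NADPH and remove haem and quinones.

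RefSeq promoter windows on GRCh38.p14 were found for 8 of the 9 genes, all but HMOX1. TXNRD1 has more than 1 start site in that table. The 1000 bases before each start site were searched on both strands for the ARE core, TGACNNNGC, and for the AP-1 motif TGANTCA, which overlaps the core where the 3 free bases begin with TCA. The ARE core was present in 7 of the 8 genes and in 31.9% of 35116 promoter windows of the same length. The AP-1 motif was present in 6 of the 8 and in 22.6% of the windows. The matches are shown because they are the letters that these genes share with the textbook NRF2 element. Each line runs 5′ to 3′ on the strand of the gene, and capitals mark the core in either orientation.
NQO1, 455 bases before the start, chr16:69726997-69727025: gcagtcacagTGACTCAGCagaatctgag
ME1, 137 bases before the start, chr6:83431170-83431198: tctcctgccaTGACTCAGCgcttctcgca
GCLM, 34 bases before the start, chr1:93909446-93909474: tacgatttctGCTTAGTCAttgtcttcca
GCLC, 870 bases before the start, chr6:53545953-53545981: acaggtcattGCTCTGTCAacacatattt
TXNRD1, 99 bases before the first start, chr12:104215670-104215698: acacgggctaTGACTTCGCtgttgtcacc
TXNRD1, 8 bases before the first start, chr12:104215761-104215789: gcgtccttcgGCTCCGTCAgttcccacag
TXNRD1, 102 bases before the second start, chr12:104286920-104286948: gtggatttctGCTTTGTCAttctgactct
TXN, 581 bases before the start, chr9:110257070-110257098: gcactaaaccGCTGTGTCAagctggagca
OSGIN1, 557 bases before the start, chr16:83952673-83952701: agacaatctgTGACTTGGCcccagttttc
SRXN1 had no ARE core in this window. It had an AP-1 match that is followed by GC, shown with the 7 bases of that match in capitals.
SRXN1, 272 bases before the start, chr20:653456-653482: aaactcacccTGAGTCAgcccgcccgg
NQO1 and ME1 share the same 9 letters, in which the AP-1 motif lies inside the core. Their transcripts nevertheless took different courses in the cells, as given below. A match is a description of the letters and does not show binding.

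Total counts ranged from 23555205 to 28615770 per sample. Levels are TMM-scaled CPM, a count set against the sample's total. CPT1A itself followed the labels, at 265 and 262 CPM in NT, 81.3, 86.4 and 86.2 in KD, 326 and 318 in EV, and 870, 914 and 861 in OE. All 9 luminal prostate markers were expressed. Of 12 markers of immune, endothelial, stromal and basal cells, 4 were at 0 in every sample (CD3E, PECAM1, COL1A2 and KRT5). The sum of the 12 was 17.8 to 18.8 CPM in NT, 25.8 to 28.3 in KD, 17.4 to 18.4 in EV and 23.1 to 25.8 in OE, through VWF, COL1A1, PDGFRB and KRT14, and its part in the results was not tested. KD 2 and OE 2 stood apart from their groups. The chi-square of their counts, divided by its degrees of freedom, was 7.13 and 7.28 against KD 1 and 3, and 4.05 and 4.69 against OE 1 and 3. It was 2.35 between KD 1 and 3 and 2.23 between OE 1 and 3. The counts of members called in the 2 arms and in the interaction were the same without either of them, and without either 1 more gene, TXN, was called lower in EV than in NT. The summed markers of the prostate lineage also differed. The sum was 6356 to 6636 CPM in NT and 9138 to 9993 in KD. It was 8726 to 9157 CPM in EV and 12197 to 12663 in OE. KLK3 was its largest part, with a mean of 4442 CPM in KD against 2466 in NT. The KLK3 mean was 5811 CPM in OE against 3412 in EV. By the rule given below, 7 of the 9 markers rose in OE versus EV, and FOLH1 and TMPRSS2 fell. In KD versus NT 7 rose, FOLH1 fell and 1 was not called. The part of these markers in the results was not tested. In bulk RNA, fewer cells of a kind and less RNA per cell cannot be told apart.

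Over-expression of CPT1A did not move the 9 genes as a block. Against EV, 4 of the 9 rose in OE cells (HMOX1, SRXN1, OSGIN1 and NQO1), 2 fell (GCLC and TXN) and 3 did not pass the test (TXNRD1, GCLM and ME1). Calls required an adjusted p under 0.05 (edgeR quasi-likelihood test on all 10 samples, Benjamini-Hochberg over all tested genes). By the same rule 25.6% of all tested genes rose, 26.4% fell and 52% were called in either direction, so that 6 of 9 is near the background. The median log2 fold change was -0.02 over the members and -0.02 over all tested genes. In KD cells against NT, 4 rose (HMOX1, GCLM, NQO1 and GCLC), 1 fell (ME1) and 4 did not pass. Of all tested genes, 29.1% rose and 28.4% fell in that comparison, or 57.5% in all. HMOX1 and NQO1 rose in both arms. No member was called higher in OE and lower in KD, as CPT1A was, and GCLC was the only one of the 9 called in the reverse order. The KD call of GCLC is lost without some single samples, and its EV samples stood above all others, as given below. Over all tested genes, 13.7% rose in both arms, 3.71% were higher in OE and lower in KD, and 4.65% were the reverse.

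**Figure D1:**
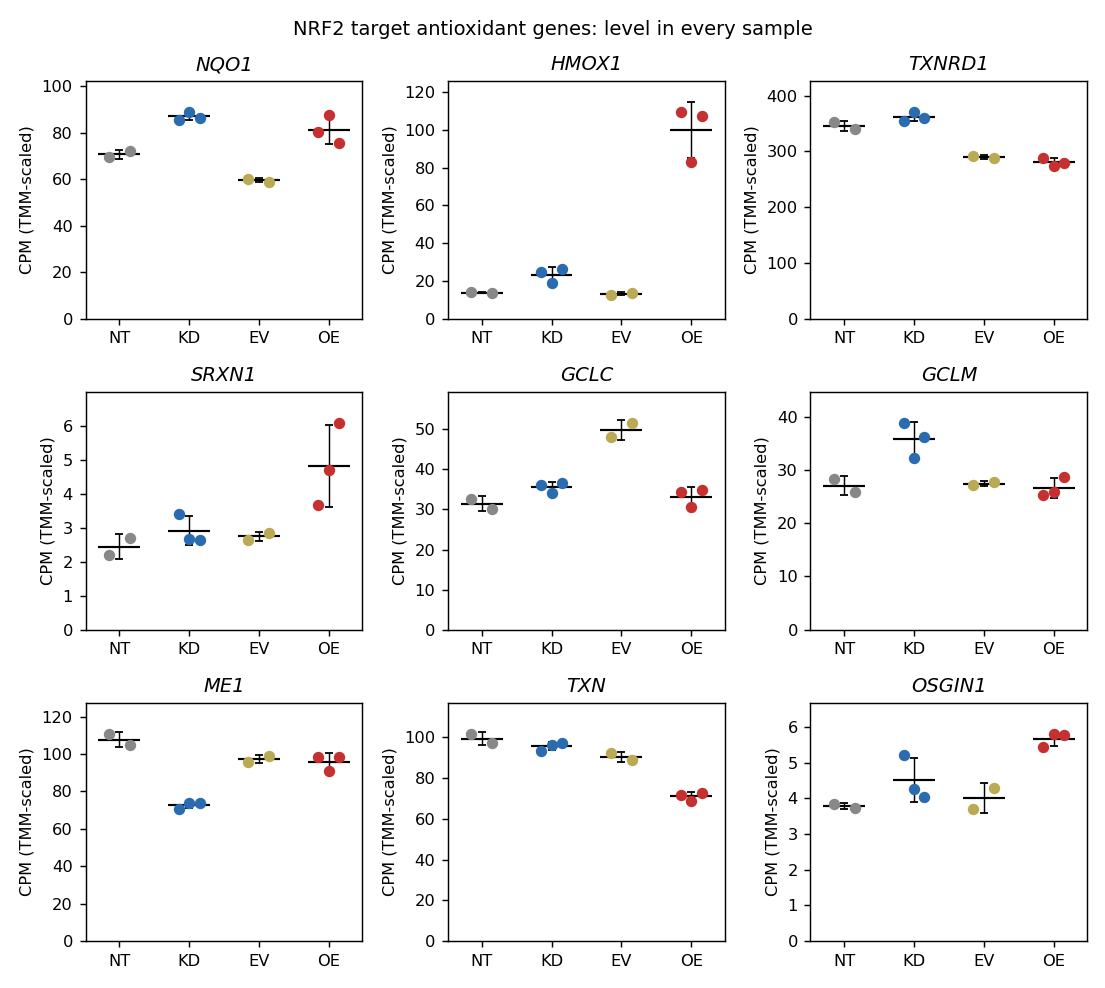
Level of each of the 9 genes in every sample, in TMM-scaled CPM (linear axes from 0), by group. Points are samples, the horizontal bar is the group mean and the whiskers are ± 1 SD (n = 2 or 3). HMOX1 stands at 83.0 to 109 CPM in OE and at 12.8 to 26.6 elsewhere, and EV stands apart for GCLC.

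HMOX1 (heme oxygenase 1, chromosome 22, 35380361 to 35394214) cleaves haem into biliverdin, iron and carbon monoxide. It had the largest change of the 9. Its level was 14.0 and 13.6 CPM in NT and 12.8 and 13.7 in EV. It was 24.6, 18.7 and 26.6 in KD and 109, 83.0 and 107 in OE. The controls overlapped each other, every KD sample lay above them, and every OE sample lay above every KD sample. HMOX1 rose 7.56-fold in OE versus EV, a log2 fold change of 2.92 ± 0.12 (SE), the 18th highest of the 17230 tested genes (edgeR, Benjamini-Hochberg adjusted p = 3.32e-15). In KD versus NT it rose 1.69-fold, by 0.76 ± 0.13 (edgeR, adjusted p = 1.66e-05). The lowest KD and OE values were those of KD 2 and OE 2. Without KD 2 the KD change was 0.89, and without OE 2 the OE change was 3.04. HMOX1 made up 2.01% and 2.16% of the summed CPM of the 9 genes in EV. In OE the share was 15.3%, 12.4% and 15.1%. Its homologue HMOX2, the constitutive heme oxygenase, also rose in both arms but by less, with a log2 fold change of 0.49 ± 0.06 in OE and 0.15 ± 0.06 in KD (edgeR, adjusted p = 2.98e-07 and 0.0359).

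NQO1 (chromosome 16, 69706996 to 69726668) reduces quinones in a single 2-electron step and is often used as a readout of NRF2. Its level was 69.3 and 72.0 CPM in NT, 85.5, 88.8 and 86.5 in KD, 60.1 and 58.8 in EV, and 80.2, 87.6 and 75.4 in OE. The KD and OE samples overlapped, and both lay above their own controls. NQO1 rose by 0.44 ± 0.06 on the log2 scale in OE (edgeR, adjusted p = 9.47e-07) and by 0.30 ± 0.06 in KD (edgeR, adjusted p = 8.68e-05). EV was itself below NT, by -0.25 ± 0.06 (edgeR, adjusted p = 0.00393; 0.0527 without NT 2). The homologue NQO2 went the other way in both arms, with log2 fold changes of -0.20 ± 0.07 in OE and -0.20 ± 0.06 in KD (edgeR, adjusted p = 0.0124 and 0.0108). OSGIN1 (chromosome 16, 83931311 to 83966332) encodes an oxidative stress-induced growth inhibitor. Its level was 3.85 and 3.73 CPM in NT, 5.21, 4.26 and 4.05 in KD, 3.70 and 4.30 in EV, and 5.42, 5.79 and 5.77 in OE. Every OE sample was above all others in the study. OSGIN1 rose by 0.50 ± 0.14 on the log2 scale in OE (edgeR, adjusted p = 0.00493), a call that is lost without EV 1 (0.41, adjusted p = 0.0728). In KD it had 0.24 ± 0.15 (edgeR, adjusted p = 0.157). Its homologue OSGIN2 fell in both arms, with -0.60 ± 0.09 in OE and -0.34 ± 0.08 in KD (edgeR, adjusted p = 4.77e-06 and 0.00131).

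The thioredoxin system uses NADPH to keep protein thiols reduced. TXN is the small thioredoxin that carries the electrons, TXNRD1 is the cytosolic reductase that recharges it, and SRXN1 is sulfiredoxin, which repairs over-oxidised peroxiredoxins. In OE cells SRXN1 rose, TXN fell and TXNRD1 did not pass the test. SRXN1 (chromosome 20, 646615 to 653200) had 2.19 and 2.70 CPM in NT, 3.41, 2.68 and 2.65 in KD, 2.65 and 2.84 in EV, and 3.67, 4.71 and 6.07 in OE. It was the least expressed member, with 58 to 157 counts in a sample, and every OE sample was above all others. SRXN1 rose by 0.81 ± 0.19 on the log2 scale in OE (edgeR, adjusted p = 0.00108) and had 0.25 ± 0.21 in KD (edgeR, adjusted p = 0.314). An unnamed protein-coding locus covers 2517 bases of its exons on the same strand in GENCODE v44, so reads could have been split between the 2.

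TXN (chromosome 9, 110243810 to 110256507) had 102 and 97.1 CPM in NT, 93.5, 96.3 and 97.5 in KD, 92.2 and 88.8 in EV, and 71.8, 68.8 and 72.5 in OE. The OE samples were the lowest, and NT and KD overlapped. TXN fell by 0.35 ± 0.05 on the log2 scale in OE (edgeR, adjusted p = 3.12e-06) and had -0.05 ± 0.05 in KD (edgeR, adjusted p = 0.369). The mitochondrial thioredoxin TXN2 rose in the same cells, by 0.37 ± 0.05 in OE, and by 0.17 ± 0.05 in KD (edgeR, adjusted p = 1.59e-06 and 0.00585). TXNRD1 (chromosome 12, 104215779 to 104350307) had 352 and 340 CPM in NT, 355, 371 and 360 in KD, 293 and 288 in EV, and 288, 273 and 280 in OE. Its 2 pairs of lines lay at different levels, and EV was below NT by -0.25 ± 0.05 (edgeR, adjusted p = 0.000262). TXNRD1 passed the test in neither arm, with -0.05 ± 0.04 in OE and 0.07 ± 0.04 in KD (edgeR, adjusted p = 0.382 and 0.215). With library size alone in place of TMM it was called in both, at -0.15 and 0.10. The mitochondrial reductase TXNRD2 had 0.12 ± 0.06 in each arm (edgeR, adjusted p = 0.0958 in OE and 0.0979 in KD), and TXNRD3 fell in OE by 0.51 ± 0.07 and rose in KD by 0.22 ± 0.07 (edgeR, adjusted p = 1.72e-06 and 0.00766).

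GCLC and GCLM are the catalytic and modifier subunits of glutamate-cysteine ligase, which makes the first and limiting step of glutathione synthesis. Their transcripts did not change in step. GCLC (chromosome 6, 53497341 to 53616970) had 32.7 and 30.2 CPM in NT, 36.2, 34.0 and 36.5 in KD, 48.0 and 51.5 in EV, and 34.4, 30.5 and 34.8 in OE. The EV samples were the ones that stood apart, above all others, and the OE samples overlapped the NT samples. GCLC fell by 0.58 ± 0.07 on the log2 scale in OE versus EV (edgeR, adjusted p = 1.57e-07), while EV was above NT by 0.66 ± 0.07 (edgeR, adjusted p = 2.86e-07). It rose by 0.18 ± 0.07 in KD versus NT (edgeR, adjusted p = 0.0329), a call that is lost without NT 2, KD 1 or KD 3 (0.12, 0.16 and 0.16, adjusted p = 0.275, 0.0861 and 0.0921). Of the 24 tested genes within 5 Mb of GCLC, 15 had a log2 fold change below 0 in OE versus EV (median -0.16), and 4 were lower than GCLC. Whether that region has a part in the fall was not tested. GCLM (chromosome 1, 93885199 to 93909456) had 28.3 and 25.8 CPM in NT, 38.8, 32.3 and 36.1 in KD, 27.1 and 27.7 in EV, and 25.3, 25.8 and 28.7 in OE. The KD samples were above all others, and the other 3 groups overlapped. GCLM rose by 0.40 ± 0.08 in KD (edgeR, adjusted p = 0.000113) and had -0.04 ± 0.08 in OE (edgeR, adjusted p = 0.681).

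ME1 (malic enzyme 1, chromosome 6, 83210402 to 83431051) makes cytosolic NADPH from malate. Its level was 111 and 105 CPM in NT, 70.8, 73.6 and 73.9 in KD, 95.7 and 98.9 in EV, and 98.6, 90.7 and 98.4 in OE. The KD samples were the lowest, and EV and OE overlapped. ME1 fell by 0.56 ± 0.05 on the log2 scale in KD (edgeR, adjusted p = 1.49e-09), to 0.676 of its level in NT, and had -0.02 ± 0.05 in OE (edgeR, adjusted p = 0.766). Of the 30 tested genes within 5 Mb of ME1, 22 had a log2 fold change below 0 in KD versus NT (median -0.29), and 9 were lower than ME1, and the part of the region was not tested. The mitochondrial malic enzyme ME2 fell in both arms, by 0.94 ± 0.06 in KD and by 0.71 ± 0.06 in OE (edgeR, adjusted p = 1.49e-12 and 1.45e-09). ME3 had at most 2 counts in any sample.

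**Figure D2:**
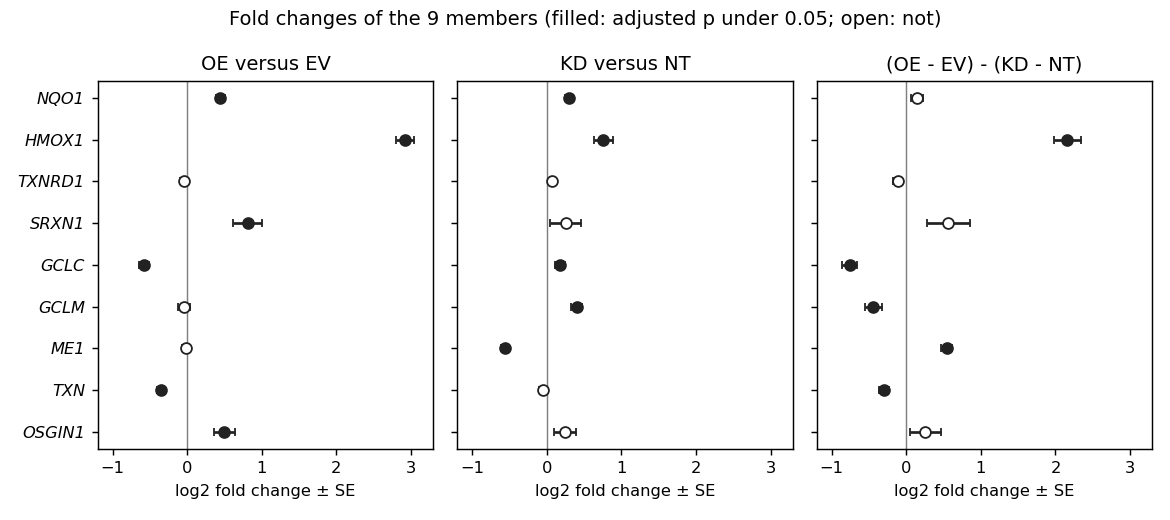
Log2 fold change with its SE (whiskers) for the 9 genes in OE versus EV, KD versus NT and the interaction, on 1 shared axis. Filled points passed an adjusted p of 0.05 and open points did not. HMOX1 is at 2.92, 0.76 and 2.16, and ME1 and GCLC have opposite signs in the interaction, at 0.54 and -0.76.

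The study compared OE with KD after each was set against its control, which is the interaction, here the log2 fold change of the OE arm less that of the KD arm. It shares its samples with both arms, so it gives no further evidence for either. In it 2 of the 9 genes were higher (HMOX1 and ME1), 3 were lower (GCLC, GCLM and TXN) and 4 did not pass the test. Among all tested genes, 20.3% were higher, 24% lower and 44.3% called in all. HMOX1 had 2.16 ± 0.18 (edgeR, adjusted p = 7.07e-10), a rise in OE that exceeded the rise in KD by 4.46-fold. ME1 had 0.54 ± 0.07 (edgeR, adjusted p = 1.7e-06), and of the arms only KD was called for it, as a fall. GCLC, GCLM and TXN had -0.76 ± 0.10, -0.44 ± 0.11 and -0.30 ± 0.07 (edgeR, adjusted p = 8.12e-07, 0.00233 and 0.00135). GCLM was called in the KD arm only and TXN in the OE arm only. The difference between the controls enters the interaction of every gene, and for GCLC it was 0.66 ± 0.07. NQO1 had 0.15 ± 0.08 (edgeR, adjusted p = 0.155), with a rise in each arm. SRXN1 had 0.56 ± 0.29 (edgeR, adjusted p = 0.119), or 0.73 without OE 1 (adjusted p = 0.0333). Between the controls, 1 of the 9 was higher in EV than in NT (GCLC) and 3 were lower (NQO1, TXNRD1 and ME1), where 18.5% of all tested genes were higher and 15.5% lower. For ME1 the difference was -0.15 ± 0.06 (edgeR, adjusted p = 0.0485), and it failed the test without any 1 of the NT or EV samples, at -0.11 to -0.18, and under several other settings.

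At the limit that the study used, an adjusted p under 0.0001, 2 members were higher in OE versus EV (HMOX1 and NQO1) and 2 lower (GCLC and TXN), where 11.6% of all tested genes were higher and 10.3% lower, 21.9% in all. In KD versus NT the same limit left HMOX1 and NQO1 higher and ME1 lower, with 16.4% of all genes higher and 12.8% lower, 29.1% in all. In the interaction it left HMOX1 and ME1 higher and GCLC lower, with 6.94% of all genes higher and 8.98% lower, 15.9% in all. In EV versus NT it left GCLC higher, with 5.25% of all genes higher and 2.91% lower, 8.16% in all.

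Levels of different genes were compared per length, as CPM per kb of the canonical GENCODE v44 transcript. In EV the order was TXN (123 CPM per kb), TXNRD1 (75.2), ME1 (29.2), NQO1 (23.6), GCLC (13.1), HMOX1 (8.51), GCLM (5.62), OSGIN1 (2.08) and SRXN1 (1.09). In OE, HMOX1 was the third at 64.3 CPM per kb, between TXNRD1 (72.7) and NQO1 (32.2). Its OE samples ran from 53.4 to 70.4 and those of TXNRD1 from 70.8 to 74.7, so that these neighbours were close without overlapping. In KD, HMOX1 was the fifth at 14.99 CPM per kb, the same place as in NT (8.87). NQO1 stood above ME1 in KD (34.5 and 21.8) and in OE (32.2 and 28.7), the reverse of their order in NT and EV. No 2 genes next to each other in the order of a group overlapped in their samples, and TXN stayed first and SRXN1 last in all 4 groups.

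**Figure D3:**
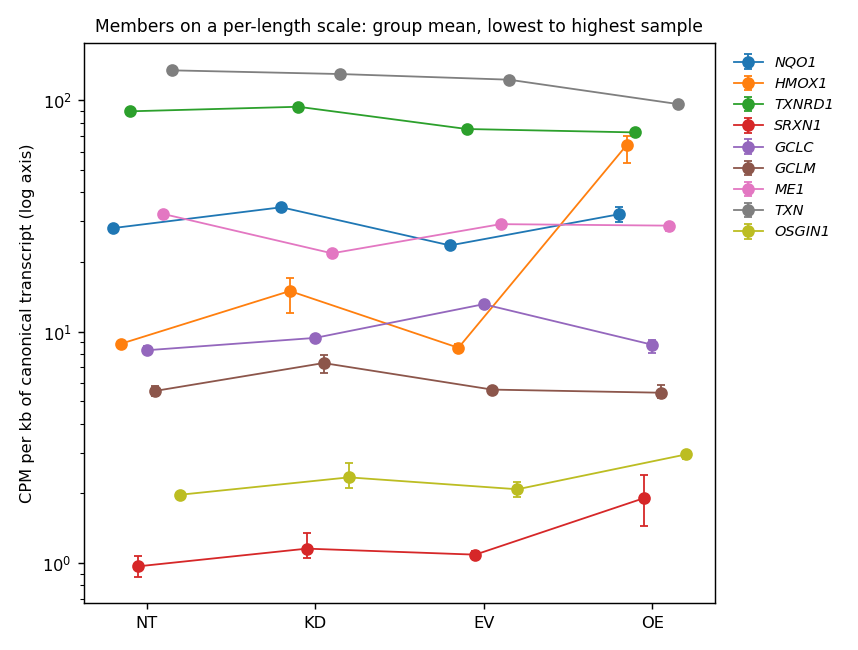
Level of the 9 genes per kb of canonical transcript (log axis), as the group mean with whiskers from the lowest to the highest sample (n = 2 or 3). Lines join the groups of 1 gene and carry no order in time. HMOX1 is at 8.51 in EV and at 64.3 in OE, while TXN and TXNRD1 remain on top.

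Across the 10 samples the 9 genes did not share 1 pattern. Of 36 pairs, 4 had a Pearson r of log2 CPM above 0.8 and 4 had one below -0.8, with a median of -0.16. HMOX1, SRXN1 and OSGIN1 ran together, at 0.86 to 0.90, and TXN ran against all 3, at -0.86 to -0.91. GCLM and ME1 had -0.85. These values describe 10 samples in 4 groups that share their library type and much of their change. The gene most like HMOX1 was ALDOA (r = 0.988), that most like ME1 was MRPS35 (0.995), and that most like NQO1 was RAE1 (0.972). For TXN it was NEXMIF (0.992), for TXNRD1 KIAA1217 (0.986) and for GCLC SPOCK1 (0.960).

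The transcripts of the NRF2 machinery were read next, for 13 genes of which 12 were tested. In OE versus EV 3 of the 12 rose and 2 fell, where 25.6% of all tested genes rose and 26.4% fell. In KD versus NT 3 rose and 5 fell, where 29.1% rose and 28.4% fell. The falls in KD were above the share of all tested genes, a difference that was not tested. The other counts were near or below their shares. NFE2L2 itself had 53.7 and 57.6 CPM in EV and 55.7, 49.9 and 55.3 in OE, which overlapped, with -0.05 ± 0.07 (edgeR, adjusted p = 0.55). It fell in KD by 0.32 ± 0.06 (edgeR, adjusted p = 0.000181), from 72.4 and 73.0 CPM in NT to 60.9, 52.5 and 61.4. EV was also below NT for NFE2L2, by -0.39 ± 0.07 (edgeR, adjusted p = 0.000197), and its KD and EV samples overlapped. KEAP1, the inhibitor of NRF2, rose by 0.39 ± 0.05 in OE and by 0.22 ± 0.05 in KD (edgeR, adjusted p = 8.92e-07 and 0.000729). GSK3B, a kinase that marks NRF2 for degradation, fell in both, by 0.48 ± 0.05 and 0.35 ± 0.05 (edgeR, adjusted p = 1.03e-08 and 5.57e-07).
BACH1, the repressor, was at 25.6 and 22.99 CPM in NT, 17.9, 15.4 and 17.5 in KD, 23.5 and 25.2 in EV, and 16.6, 13.0 and 14.4 in OE. Both manipulated lines lay below both controls. BACH1 fell by 0.73 ± 0.09 in OE and by 0.52 ± 0.09 in KD (edgeR, adjusted p = 6.59e-07 and 2.95e-05). MAFF, a small MAF partner, was at 2.68 and 2.07 CPM in NT, 0.77, 0.83 and 1.00 in KD, 1.68 and 2.23 in EV, and 5.58, 4.44 and 6.77 in OE. It was the only one of the 12 that rose in OE and fell in KD, by 1.53 ± 0.20 and by 1.45 ± 0.25 (edgeR, adjusted p = 7.58e-07 and 2.87e-05), with 20 to 175 counts in a sample. MAFG rose in OE by 0.32 ± 0.07 (edgeR, adjusted p = 0.000315), and MAFK rose in KD by 0.40 ± 0.06 (edgeR, adjusted p = 1.36e-06). For both, EV was also above NT, by 0.31 ± 0.07 for MAFG and 0.35 ± 0.06 for MAFK (edgeR, adjusted p = 0.00216 and 9.58e-05).

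**Figure D4:**
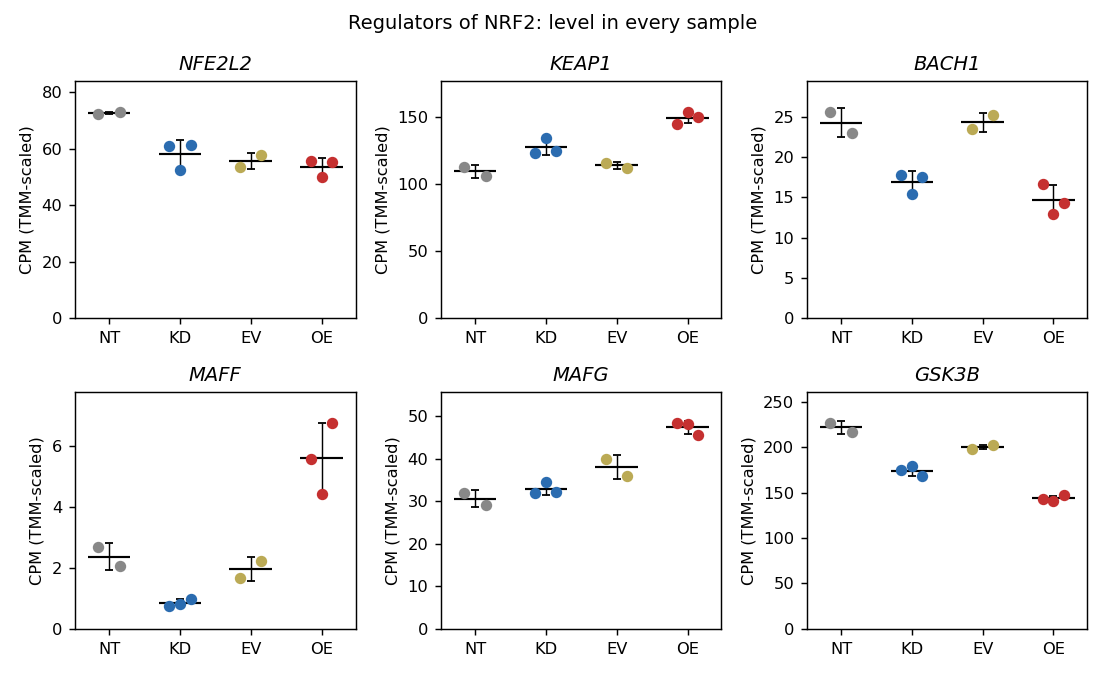
Level of 6 regulators of NRF2 targets in every sample, in TMM-scaled CPM (linear axes from 0). Points are samples, bars are group means and whiskers are ± 1 SD (n = 2 or 3). BACH1 is lower in KD and OE than in both controls, and MAFF runs from 0.77 to 1.00 CPM in KD and from 4.44 to 6.77 in OE.

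A list of 44 other NRF2 targets, written from general knowledge, had 30 tested genes. Of these, 15 rose and 8 fell in OE versus EV, where 25.6% of all tested genes rose and 26.4% fell. Their median log2 fold change was 0.14, against -0.02 over all tested genes. In KD versus NT 12 rose and 13 fell, where 29.1% of all tested genes rose and 28.4% fell. The median was 0.07, again against -0.02. The rises in OE and both counts in KD were above the shares of all tested genes, a difference that was not tested. The direction was mixed. The list was divided by role after its values were seen. Among enzymes that supply NADPH or feed its pathway, PGD, TALDO1 and TKT rose in OE (0.28, 0.26 and 0.37), and IDH1 fell (-0.15). PGD and TALDO1 rose in KD as well (0.12 and 0.15). Of the 6 genes of haem and iron, 4 rose and 1 fell in OE, where 25.6% of all tested genes rose and 26.4% fell. In KD 2 of them rose and 3 fell, where 29.1% of all tested genes rose and 28.4% fell. FTH1 and FTL, the ferritin subunits that store the iron HMOX1 sets free, had 0.18 ± 0.05 and 0.22 ± 0.06 in OE (edgeR, adjusted p = 0.00392 and 0.00265). Their controls differed as well, with -0.40 ± 0.05 for FTH1 and 0.21 ± 0.06 for FTL in EV versus NT (edgeR, adjusted p = 3.25e-06 and 0.0129). BLVRA and BLVRB, which reduce the biliverdin that HMOX1 makes, went opposite ways in OE, at -0.53 and 0.26 (edgeR, adjusted p = 1.02e-05 and 0.000887).
In KD cells FTH1 and FTL did the opposite of HMOX1. FTH1 had 3517 and 3219 CPM in NT, 1356, 1365 and 1293 in KD, 2532 and 2571 in EV, and 2933, 2906 and 2818 in OE. It fell in KD by 1.33 ± 0.05 on the log2 scale (edgeR, adjusted p = 9.1e-17), with FTL at -0.54 ± 0.06 (adjusted p = 1.53e-08). FTH1 has many processed copies in the genome, and how reads shared between them were counted is not stated. SLC7A11, the cystine importer that feeds glutathione synthesis and is also a target of ATF4, fell in both arms, by 1.94 ± 0.07 in KD and by 0.48 ± 0.07 in OE (edgeR, adjusted p = 2.76e-17 and 1.3e-06). Its controls differed as well, with EV below NT by -0.60 ± 0.07 (edgeR, adjusted p = 4.75e-07). Of 4 tested glutathione S-transferases, GSTA1, GSTA4 and GSTM3 fell in OE, where 26.4% of all tested genes fell, and MGST1 had 0.10 (edgeR, adjusted p = 0.117). In KD versus NT GSTA1, GSTA4 and MGST1 fell, where 28.4% of all tested genes fell. MGST1 had -0.33, and GSTM3 rose by 0.54 (edgeR, adjusted p = 4.19e-06 and 1.88e-07).
GSTA1 had 49.6 and 50.2 CPM in NT, 20.8, 27.97 and 22.4 in KD, 16.5 and 18.4 in EV, and 3.27, 3.80 and 3.75 in OE. It fell by 2.27 ± 0.13 in OE and by 1.07 ± 0.09 in KD (edgeR, adjusted p = 8.92e-13 and 1.85e-10), and it has near-identical paralogs. EV was below NT for GSTA1 by -1.52 ± 0.10 (edgeR, adjusted p = 3.49e-11). GSTA4 fell by 0.84 ± 0.10 in OE (edgeR, adjusted p = 4.45e-07). Both lie within 5 Mb of GCLC. EPHX1, the microsomal epoxide hydrolase, rose by 0.76 ± 0.06 in OE and by 0.15 ± 0.06 in KD (edgeR, adjusted p = 3.72e-10 and 0.034). For EPHX1 too the controls differed, with EV above NT by 0.37 ± 0.06 (edgeR, adjusted p = 8.4e-05). Named after its values were seen, GSR, the enzyme that recycles glutathione with NADPH, rose in both arms, by 0.41 ± 0.05 in OE and 1.06 ± 0.05 in KD (edgeR, adjusted p = 7.49e-08 and 2.14e-15). EV was itself above NT for GSR, by 0.51 ± 0.05 (edgeR, adjusted p = 2.8e-08).

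**Figure D5:**
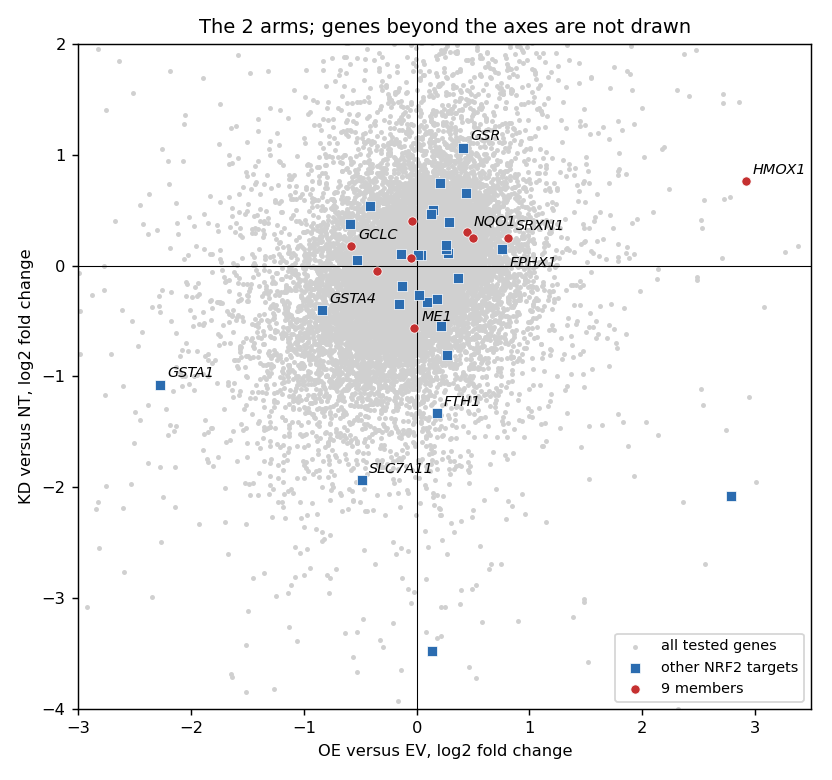
Log2 fold change in OE versus EV (horizontal) against KD versus NT (vertical) for all tested genes (grey), the 9 members (red circles) and other NRF2 targets (blue squares); 247 genes beyond the axes are not drawn. The 2 arms share no samples. HMOX1 is at 2.92 and 0.76, and FTH1 and SLC7A11 lie lowest among the labelled genes in KD, at -1.33 and -1.94.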

How the data were processed

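RNA from 10 samples was read in pairs (150 bp) from poly(A) libraries. The authors removed adapters with BBDuk, discarded reads under 50 bp, and aligned and quantified reads with STAR 2.6.0a against the Ensembl hg38.p12 transcriptome. The deposited values are whole-number counts per gene symbol, and 0 columns were left out. Strandedness and the treatment of reads shared between genes are not given in the sources used here, so antisense loci such as GCLC-AS1 could not be told apart from their partners.

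Groups and replicate numbers came from the sample titles. In R 4.3.3, edgeR 4.0.16 filtered the counts (filterByExpr), computed TMM factors and ran the quasi-likelihood F test with 1 mean per group, with Benjamini-Hochberg adjustment over 17230 genes. SE is the log2 fold change divided by the square root of F. Alternatives used DESeq2 1.42.0, limma 3.58.1 and the settings given in the closing section. Positions and lengths are from GENCODE v44 (GRCh38), matched by symbol for 82% of tested genes.

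The members and lists were chosen with earlier results of these data known. Named genes are the 9 members, CPT1A, regulators and homologues, the 3 other targets with the largest called change per comparison (average log2 CPM of at least 1), and the genes nearest in pattern to each member. Other targets named outside that rule, and the grouping by role, were chosen after their values were seen. Neighbours within 5 Mb and the sums of marker lists were added after seeing the data.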

Additional observations from a re-analysis of the deposited data

How the results depend on the processing

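Over 18 alternatives (19 with each arm alone), no called member changed sign in any of the 4 comparisons. Of 666 member values, 632 kept their side of the threshold, 26 lost the call and 8 gained it. At an adjusted p under 0.0001, members called higher became 2 in each arm, and members called lower became 1 in the interaction and 0 in EV versus NT. For that 0, edgeR had 4 lower at an unadjusted p under 0.05, and at the strict limit limma-voom had 0 and the DESeq2 Wald test 1. Leaving out 1 sample at a time gave 3 to 4 higher and 2 lower in OE versus EV, 3 to 4 higher and 1 lower in KD versus NT, 2 to 3 higher and 3 lower in the interaction, and 1 higher and 1 to 4 lower in EV versus NT, where without NT 2 only 1 was lower. A control group left with 1 sample was taken to vary like the others. Library size alone shifted the median of all genes to -0.12 in OE versus EV and -0.15 in the interaction. It gave 3354 genes higher and 5839 lower against 4411 and 4545 with TMM in the first, and 2486 and 5612 against 3492 and 4139 in the second. With the replicate block GCLC lost its call in KD versus NT (0.15, adjusted p = 0.0669, in a range of 0.01 to 0.275 over the alternatives) and TXN gained one in EV versus NT (-0.13, 0.0473, in a range of 0.0314 to 0.325). The block otherwise left the calls of members as they were. Samples share only the number. Same-numbered samples of different groups had a mean residual correlation of -0.003 over 13 pairs (-0.04 to 0.08). With 58 to 157 counts, small changes of SRXN1 are the least well resolved.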

Other observations

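Of the 44 other NRF2 targets, 14 were too low to be tested. GSTP1, which is known to be silenced in prostate cancer, had 0 to 2 counts, GSTM1 and ALDH1A1 0 to 1, AKR1B10 and UGT1A6 0 to 3, and NR0B1 0 in every sample. Of 105 tested genes within 5 Mb of HMOX1, 103 had a lower log2 fold change than HMOX1 in OE versus EV (median 0.23). In KD versus NT 93 of them did (median 0.08). Around NQO1 the median of 104 neighbours was -0.05 for the OE arm and 0.11 for the KD arm. Named after its values were seen, SQSTM1, an adaptor that binds KEAP1, rose by 0.27 ± 0.05 in OE and fell by 0.81 ± 0.05 in KD (edgeR, adjusted p = 0.000174 and 4.1e-12).
The 2 unlabelled targets far from the rest in the plot of both arms are AKR1C1 and AKR1C2, aldo-keto reductases with near-identical sequences, also named after their values were seen. Across all samples AKR1C1 had 1 to 27 counts and AKR1C2 2 to 30. AKR1C2 rose by 2.79 ± 0.45 in OE and fell by 2.08 ± 0.43 in KD (edgeR, adjusted p = 1.42e-05 and 0.0002). AKR1C1 fell by 3.48 ± 0.60 in KD (edgeR, adjusted p = 2.59e-05). Its NT samples stood apart, at 27 and 11 counts, against 2, 2 and 1 in KD, 2 and 3 in EV, and 1, 2 and 5 in OE. EV was also below NT, by -2.82 ± 0.64 for AKR1C1 and -2.28 ± 0.51 for AKR1C2 (edgeR, adjusted p = 0.00124 and 0.00107).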
